A study of Mus musculus with 8 samples.

Results

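The hypoxia-inducible factor (HIF) pathway was examined in lung endothelial cells (ECs) of neonatal mice through 10 of its genes. The genes were chosen by name as the HIF subunits (Hif1a, Epas1, Hif3a and Arnt), oxygen-sensing enzymes and the VHL ubiquitin ligase component (Egln1, Egln3 and Vhl), and target genes outside glycolysis (Adm, Bnip3 and Ankrd37). All 10 were found among the 54532 genes of the count table. The bulk RNA-seq data compared 4 libraries from wild-type C57BL/6J pups kept in room air (normoxia, 21% O2) with 4 libraries from wild-type pups kept in hyperoxia (80% O2), both from postnatal day 0 to day 14. Per the study's methods, nursing dams were rotated between the groups every day, and ECs were isolated from lung suspensions by removing CD45+ cells and collecting the cells bound to CD31-coated beads, so each library is an enriched isolate rather than a pure cell type. The number of pups behind a library is not given in the sources used here.

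HIF is a pair of proteins, an alpha subunit (HIF-1α, HIF-2α or HIF-3α, encoded by Hif1a, Epas1 and Hif3a) and the shared partner ARNT. When oxygen is plentiful, prolyl hydroxylases encoded by the Egln genes modify the alpha subunits, VHL then recognises them and they are degraded, whereas in low oxygen they accumulate and bind hypoxia response elements (HREs) in DNA. HIF-2α is known for its abundance in endothelium, and because the alpha subunits are controlled mainly through protein stability, transcript counts do not measure HIF activity.

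The target genes carry HRE letters close to their start sites, and the promoters of 4 members known as HIF targets (the 3 target genes and Egln3) are shown so that these letters can be read beside the expression values. Each sequence is a RefSeq window (GRCm38.p6) from 250 bases before to 50 bases after the RefSeq start, written 5′ to 3′ on the strand of the gene. This start can differ from the gene bounds given below. The Ankrd37 and Hif1a windows lie inside the spans of their genes, away from the first base of the span. Capitals mark the HRE cores ACGTG and GCGTG on either strand, which read CACGT and CACGC on the other strand. Neighbouring cores can share letters, and CACGTG counts once on each strand.
Ankrd37 promoter, chr8:45999801-46000100, minus strand: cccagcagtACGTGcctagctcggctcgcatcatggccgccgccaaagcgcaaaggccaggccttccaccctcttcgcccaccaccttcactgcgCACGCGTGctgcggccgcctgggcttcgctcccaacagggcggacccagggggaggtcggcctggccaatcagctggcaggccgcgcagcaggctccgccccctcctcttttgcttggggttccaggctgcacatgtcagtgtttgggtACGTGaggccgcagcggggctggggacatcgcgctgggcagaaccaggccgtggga
Bnip3 promoter, chr7:138909457-138909756, minus strand: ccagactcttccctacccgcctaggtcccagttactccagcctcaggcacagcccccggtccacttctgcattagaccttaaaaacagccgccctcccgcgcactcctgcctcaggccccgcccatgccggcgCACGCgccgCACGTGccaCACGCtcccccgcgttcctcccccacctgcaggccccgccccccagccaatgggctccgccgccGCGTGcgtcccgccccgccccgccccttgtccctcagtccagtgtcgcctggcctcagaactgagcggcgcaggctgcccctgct
Egln3 promoter, chr12:54203825-54204124, minus strand: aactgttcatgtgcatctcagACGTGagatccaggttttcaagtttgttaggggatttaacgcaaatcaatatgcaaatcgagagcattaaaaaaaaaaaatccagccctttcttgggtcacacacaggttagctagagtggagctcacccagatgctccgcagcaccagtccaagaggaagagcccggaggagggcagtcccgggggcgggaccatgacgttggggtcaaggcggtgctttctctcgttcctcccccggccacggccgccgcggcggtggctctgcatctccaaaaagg
Adm promoter, chr7:110627407-110627706, plus strand: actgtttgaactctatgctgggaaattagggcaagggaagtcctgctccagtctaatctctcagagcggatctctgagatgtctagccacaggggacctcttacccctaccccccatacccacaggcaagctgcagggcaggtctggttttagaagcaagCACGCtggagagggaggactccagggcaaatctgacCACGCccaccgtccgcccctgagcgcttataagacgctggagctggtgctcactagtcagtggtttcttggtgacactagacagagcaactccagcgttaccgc
A window was found for 9 of the 10 genes (Epas1 was not matched), and 8 of the 9 held at least 1 core. Bnip3 held 5 matches, Ankrd37 held 4, and Vhl was the gene without a match. Of 32851 such windows in the table, 43.8% held at least 1 of the cores, 19.6% held ACGTG and 32.4% held GCGTG. These matches describe the letters of the windows and are not evidence of binding.

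**Figure D1:**
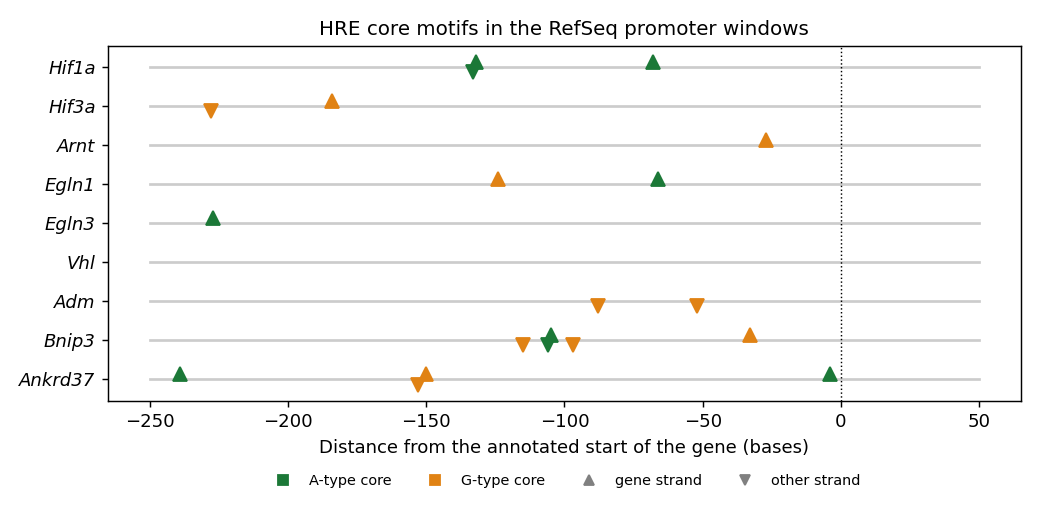
HRE core matches in the promoter windows of the 9 matched genes, by distance in bases from the RefSeq start of each window (dotted line). Green marks ACGTG and orange marks GCGTG, with upward triangles on the strand of the gene and downward triangles on the other strand. Bnip3 held 5 matches and Ankrd37 held 4, while Vhl held none.

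Libraries held 16098086 to 18300730 counts, and no pair of libraries within a group agreed within counting noise (chi-square per degree of freedom 4.65 to 16.1), so none was treated as a library deposited again. Hyperoxia 3 lay closest to normoxia on the first principal component (20.3, where the rest of its group had 40.2 to 42.9, and -43.6 to -28.5 in normoxia). The 10 endothelial markers, among them Cdh5 and Pecam1, summed to 16680 to 17200 CPM (counts scaled to a common library total) in normoxia and 16750 to 18340 CPM in hyperoxia, and none of them was at 0 in any library. Cdh5 and Pecam1 did not pass the test, but 3 of the 10 rose and 2 fell. Eng (log2 fold change 0.43), Emcn (0.42) and Cldn5 (0.22) were the higher ones and Tie1 (-0.18) and Erg (-0.25) the lower ones, changes of a size similar to those of Hif1a and Epas1 given below. Markers of other lung cells differed between the groups. All 8 alveolar type 2 markers rose, with summed levels of 237 to 335 CPM in normoxia, 759 CPM in hyperoxia 3 and from 2007 up to 2287 CPM in its 3 companions. All 7 alveolar type 1 markers rose as well (77.0 to 95.1 CPM in normoxia, 161 CPM in hyperoxia 3, 410 to 456 CPM in the others). The fibroblast markers summed to 114 to 222 CPM in normoxia and 172 to 407 CPM in hyperoxia, with 3 of 6 tested genes higher, and the mural markers to 23.0 to 47.7 and 43.5 to 102.6 CPM, with 5 of 7 higher. Lum and Cnn1 were at 0 in at least 1 library, as the only markers of these lists. The summed leukocyte markers overlapped between the groups (104 to 178 and 104 to 174 CPM), and 1 of the 6, the macrophage gene Cd68, fell (log2 fold change -0.67, adjusted p 0.000276). Of the 8 libraries, 5 held both Xist and Y-linked counts, 2 held almost no Xist (normoxia 2 and hyperoxia 4) and 1 held almost no Y-linked counts (hyperoxia 3), so the mix of sexes differed between libraries.

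The first question was how strongly each gene of the pathway was expressed. Levels were compared between genes as FPKM, the deposited values per kilobase of gene length. Epas1 stood far above all other members in every library, at 1253 ± 51.0 FPKM in normoxia and 1025 ± 21.8 FPKM in hyperoxia (SD, n = 4 each). It ranked between 6 and 12 among 22046 protein-coding genes across the 8 libraries, and it alone took 0.529% to 0.693% of all counts. Egln1, Hif1a, Arnt and Vhl followed, between 9.19 and 18.4 FPKM in normoxia on average. Ankrd37 (5.85 FPKM), Bnip3 (3.01 FPKM) and Adm (2.56 FPKM) were lower, Egln3 stood at 0.637 FPKM and Hif3a was barely detected at 0.0234 FPKM. In normoxia only Bnip3 and Adm overlapped among neighbours in this order. In hyperoxia the ranges of Hif1a and Egln1, of Arnt and Ankrd37, of Ankrd37 and Vhl, and of Adm and Bnip3 overlapped, so the order of these neighbours was not resolved.

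**Figure D2:**
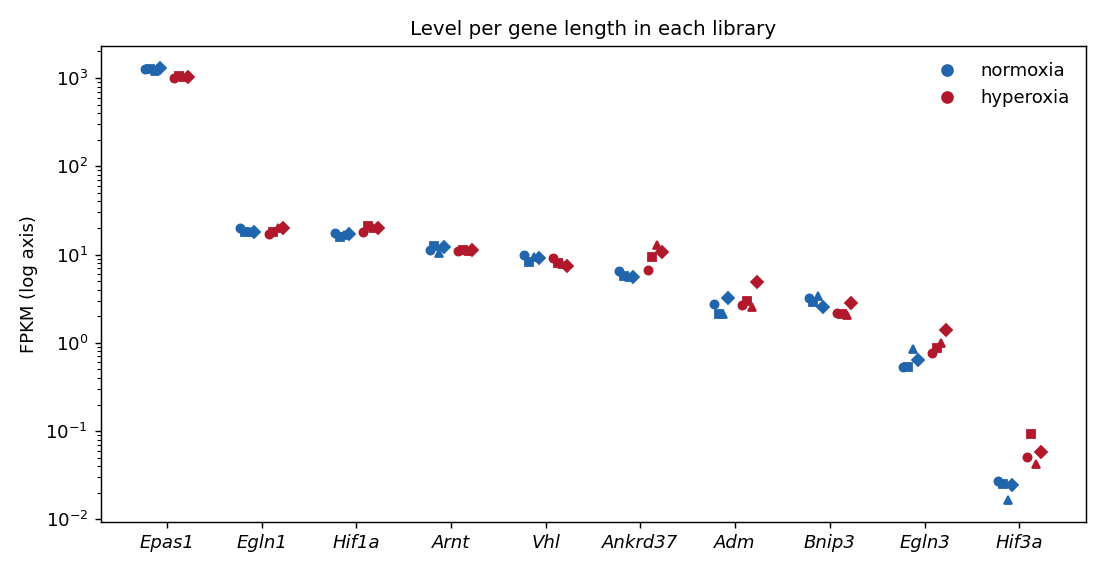
FPKM of each gene in each library on a log axis, ordered by the mean over the 8 libraries, with normoxia in blue and hyperoxia in red (symbols mark libraries 1 to 4 of a group and pair nothing across groups). Epas1 lay between 993 and 1311 FPKM and Hif3a below 0.1 FPKM.

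The main comparison asked which of the 10 transcripts differed between hyperoxia and normoxia. Hif1a and Ankrd37 rose, Epas1 fell, and no other tested member passed the test. Of the 10 genes 9 passed the filter on low counts, and 3 of these (33.3%) had an edgeR adjusted p under 0.05. That share was near the background, since 35.6% of all 15564 tested genes passed in either direction, 18.4% higher and 17.2% lower. The changes were small, because none of the 9 reached an absolute log2 fold change of 1 along with an adjusted p under 0.05, which 6.96% of all tested genes did (5.57% higher and 1.39% lower). The median log2 fold change of the 9 genes was 0.02, against 0.00 over all tested genes. In bulk libraries less RNA per cell and fewer cells of an expressing type cannot be told apart.

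**Figure D3:**
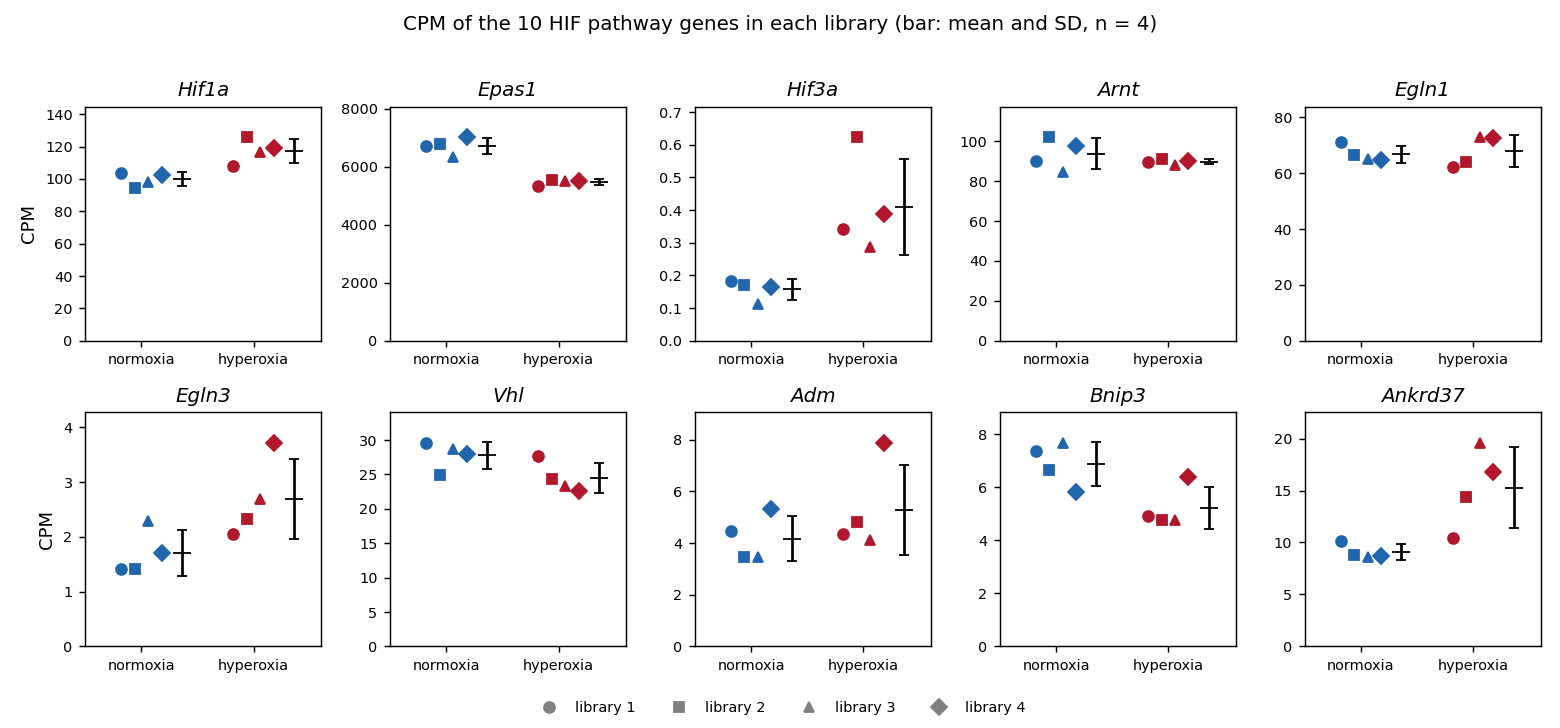
CPM of the 10 genes in each library, with 1 panel per gene and its own axis starting at 0, normoxia in blue, hyperoxia in red, and the mean and SD of 4 libraries beside them in black. All 4 hyperoxia libraries lay below all normoxia libraries for Epas1 and above them for Hif1a, Hif3a and Ankrd37, and the groups overlapped for the other 6 genes.

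Among the subunits, Epas1 (ENSMUSG00000024140, chromosome 17, 86753907 to 86833410, GRCm38, plus strand) encodes HIF-2α. Its levels were 6710, 6774, 6343 and 7010 CPM in normoxia 1 to 4 and 5317, 5540, 5506 and 5521 CPM in hyperoxia 1 to 4. The groups did not overlap, the lowest normoxia library standing above the highest hyperoxia library. The log2 fold change was -0.29 (SE 0.0443, adjusted p 0.000272), a decrease to 0.815 of the normoxia level. It was counted 93130 to 126900 times per library.

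Hif1a (ENSMUSG00000021109, chromosome 12, 73901375 to 73947530, plus strand), which encodes HIF-1α, moved the other way. It was measured at 104, 94.2, 98.4 and 102 CPM in normoxia and at 108, 126, 117 and 119 CPM in hyperoxia. Every hyperoxia library was above every normoxia library, with hyperoxia 1 closest to the normoxia range. On the log2 scale the change was 0.24 (SE 0.0551, adjusted p 0.00521), a rise by a factor of 1.18. The annotation has 5.6% of the Hif1a exon bases overlapping the antisense gene Gm15283, which had 277 counts over all libraries against 15261 for Hif1a.

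With Epas1 lower and Hif1a higher, the ratio of their FPKM within a library went from 74.8 ± 3.95 in normoxia to 51.9 ± 2.37 in hyperoxia (SD, n = 4 each). The lowest ratio in normoxia was 71.6 and the highest in hyperoxia was 54.7, so the groups did not overlap. Epas1 nevertheless made up 98.7% of the summed FPKM of the 3 alpha subunits in normoxia and 98.1% in hyperoxia. This ratio repeats the changes of its members and was not tested separately.

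Arnt (chromosome 3, 95434388 to 95497240, plus strand) encodes the partner of all alpha subunits. It stood at 84.6 to 102.0 CPM in normoxia and 88.0 to 91.0 CPM in hyperoxia, with all hyperoxia libraries inside the normoxia range. Its log2 fold change was -0.06 with a 95% interval from -0.19 to 0.06 (adjusted p 0.437). Epas1 exceeded Arnt by a factor of 108 ± 5.84 in normoxia and 92.0 ± 2.01 in hyperoxia on the FPKM scale.

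Hif3a (chromosome 7, 17031507 to 17062427, minus strand) encodes HIF-3α, variants of which can restrain HIF. It had 3, 3, 2 and 3 counts in normoxia and 6, 11, 5 and 7 counts in hyperoxia, too few to pass the filter. All hyperoxia libraries were above all normoxia libraries, where 35.4% of all tested genes had groups without overlap in either direction. Enumerating all 70 assignments of the CPM (exact permutation test, two-sided) gave an unadjusted p of 0.0286. This is the lowest value possible with 4 libraries a group and only restates the lack of overlap. Without the filter, edgeR gave a log2 fold change of 1.35 that was not past the threshold (adjusted p 0.149). The ratio of the summed counts, 29 over 11 and scaled by library size, was 2.61 with a 95% interval from 1.26 to 5.78 that covers counting error only. Hyperoxia 3, with 5 counts, had the lowest Hif3a level of its group and its lowest epithelial, fibroblast and mural marker sums. Hyperoxia 1, with 6 counts, had the highest epithelial marker sums of the group. Whether other cells contributed to these counts was not tested.

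The oxygen sensors are prolyl hydroxylases, of which Egln1 (chromosome 8, 124908587 to 124949324, minus strand), encoding PHD2, is regarded as the main one acting on HIF-1α in normoxia. It stood at 71.2, 66.4, 65.2 and 64.6 CPM in normoxia and at 62.1, 64.2, 72.9 and 72.7 CPM in hyperoxia. The hyperoxia libraries fell on both sides of the normoxia range. The log2 fold change was 0.02, with a 95% interval from -0.11 to 0.16 (adjusted p 0.798), so a change beyond 0.16 in either direction lies outside the interval.

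Egln3 (chromosome 12, 54178981 to 54203860, minus strand) encodes PHD3 and is itself a HIF target. It was scarce, at 1.41, 1.42, 2.29 and 1.71 CPM in normoxia and 2.06, 2.32, 2.69 and 3.72 CPM in hyperoxia, from 23 to 67 counts. Normoxia 3 was above hyperoxia 1, so the groups overlapped. Its log2 fold change of 0.65 (SE 0.255, 95% interval 0.10 to 1.21) was not past the threshold after adjustment (adjusted p 0.0639). Without normoxia 3 the adjusted p was 0.033, and without hyperoxia 1 it was 0.0457. Egln2, which encodes PHD1 and is named here after its values were seen, was measured at 56.1 ± 2.66 and 61.5 ± 2.55 CPM (SD, n = 4 each, log2 fold change 0.13, adjusted p 0.0692, or 0.0467 without normoxia 1).

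Vhl (chromosome 6, 113623959 to 113631633, plus strand) had 29.6, 24.9, 28.6 and 27.9 CPM in normoxia and 27.6, 24.3, 23.3 and 22.6 CPM in hyperoxia. The groups overlapped, because hyperoxia 1 lay above normoxia 2. The log2 fold change was -0.18 (SE 0.0801, 95% interval -0.36 to -0.01), with an adjusted p of 0.0974. Leaving out normoxia 2 gave an adjusted p of 0.0398 and leaving out hyperoxia 1 gave 0.0329.

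The 3 target genes did not move together. Ankrd37 (ENSMUSG00000050914, chromosome 8, 45996902 to 46005707, minus strand), which encodes an ankyrin repeat protein known to be induced by hypoxia, showed the largest change of the 9 tested genes. It had 10.2, 8.82, 8.62 and 8.73 CPM in normoxia and 10.4, 14.3, 19.6 and 16.8 CPM in hyperoxia. The groups did not overlap, although hyperoxia 1 exceeded normoxia 1 only slightly, and hyperoxia 3 was the highest. The change came to 0.75 on the log2 scale (SE 0.166, adjusted p 0.00428), a rise by a factor of 1.68. Hyperoxia 3 combined the highest Ankrd37 level with the lowest epithelial marker level of its group, and without that library the log2 fold change was 0.61 (adjusted p 0.00812). A source of Ankrd37 in other cells was not tested. Of the Ankrd37 exon bases, 22.7% overlap exons of Lrp2bp on the other strand and 3.70% those of Ufsp2. Lrp2bp (log2 fold change -0.10, adjusted p 0.86) and Ufsp2 (log2 fold change 0.26, adjusted p 0.0716) were not past the threshold, and the use of strand in the counting is not given in the sources used here.

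Bnip3 (chromosome 7, 138890836 to 138909519, minus strand), whose product sits on mitochondria and promotes their removal by autophagy, had 7.35, 6.66, 7.66 and 5.80 CPM in normoxia and 4.91, 4.76, 4.75 and 6.38 CPM in hyperoxia. Hyperoxia 4 reached into the normoxia range while the other 3 hyperoxia libraries were below it. The log2 fold change was -0.40 (SE 0.149, 95% interval -0.72 to -0.08), and the adjusted p of 0.0538 was just above the threshold. The call depended on the processing, since leaving out hyperoxia 4 gave an adjusted p of 0.0246 and leaving out normoxia 4 gave 0.0384. The targets with the most HRE cores in their promoter windows, Ankrd37 and Bnip3, had log2 fold changes of opposite sign, and that of Bnip3 was not past the threshold.

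Adm (chromosome 7, 110627661 to 110629820, plus strand) encodes adrenomedullin, a vasodilator peptide. It stood at 4.47, 3.47, 3.47 and 5.30 CPM in normoxia and 4.34, 4.81, 4.12 and 7.88 CPM in hyperoxia. Its groups overlapped widely apart from the high value of hyperoxia 4. The log2 fold change was 0.34 with a 95% interval from -0.16 to 0.84 (adjusted p 0.275), and without hyperoxia 4 it was 0.08.

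**Figure D4:**
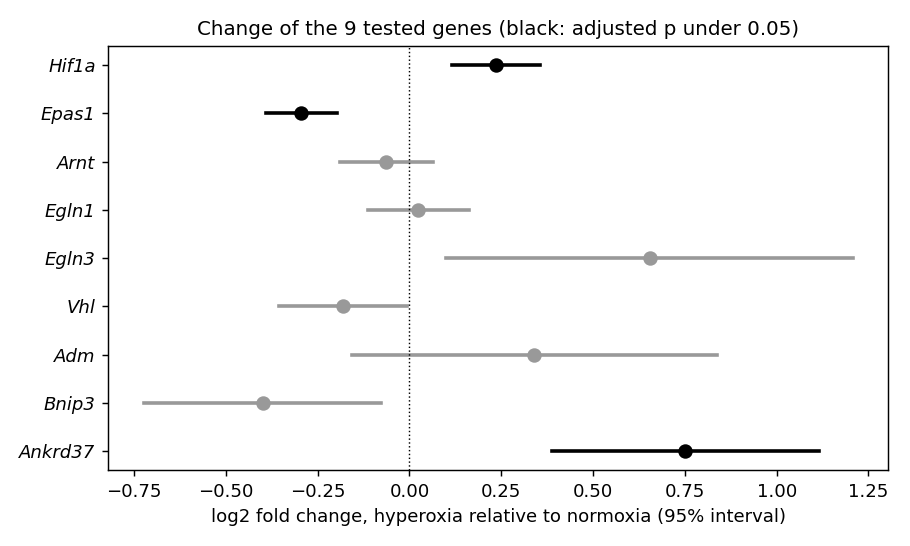
Log2 fold change (hyperoxia relative to normoxia) of the 9 tested genes with its 95% interval from edgeR, in black where the adjusted p was under 0.05 and in grey otherwise. Hif1a (0.24) and Ankrd37 (0.75) lay above 0 and Epas1 (-0.29) below it, and the widest intervals belonged to the scarce transcripts Egln3 and Adm.

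With the mean log2 CPM of the 15 epithelial markers as a covariate, none of the 9 genes passed the test. The log2 fold changes of Hif1a and Epas1 were then 0.22 and -0.24, close to those without it, while their SEs were 0.168 and 0.137 (adjusted p 0.683 and 0.547). That of Ankrd37 was 1.51 (SE 0.387, adjusted p 0.0832). The same model left 249 genes (1.6%) past the threshold over all tested genes. Because the score followed the groups, its part in these values and that of oxygen cannot be told apart. The log2 fold changes from this model that are given below carry the same limit. Of the further genes described below, Ak4 and Pfkfb3 stayed past the threshold in this model (adjusted p 0.0287 and 0.00749).

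For each of the 3 genes past the test, the protein-coding gene with the most similar profile was sought among 13268 tested genes, by the root mean square difference of log2 CPM relative to the normoxia mean over the 8 libraries. The nearest profile to Epas1 was that of Ccdc50 (0.0222, log2 fold change -0.28), and the nearest to Hif1a was that of Rabl6 (0.0355, log2 fold change 0.22). Ankrd37 was nearest to Selp (0.0632, log2 fold change 0.74), which encodes the leukocyte adhesion receptor P-selectin. These are descriptions of profiles chosen from many genes.

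Around the 10 genes, other parts of the pathway were described with 3 lists written from general knowledge. The lists were chosen with earlier results of these data known, so their shares are descriptions and no set test was run. All listed genes are protein-coding, while the background of 35.6% covers every gene type. With protein-coding genes only, 40.1% of tested genes passed. Of 21 other HIF regulators 20 were tested, and 2 rose and 4 fell, which is 30.0% against the background of 35.6%. The median log2 fold change of the list was -0.01. Arnt2, the scarce paralogue of Arnt, rose from 0.750 ± 0.176 to 2.45 ± 1.06 CPM (SD, n = 4 each, log2 fold change 1.71, adjusted p 0.00209). Its values in hyperoxia 1 to 4 were 1.71, 2.83, 1.49 and 3.77 CPM, lowest in hyperoxia 3 and next lowest in hyperoxia 1. Hyperoxia 1 had the highest alveolar marker sums of its group and hyperoxia 3 the lowest, and a source in other cells was not tested for Arnt2. The Arnt2 call was lost in the unfiltered model of log2(FPKM + 1) (adjusted p 0.069) and with the epithelial covariate, which gave it a log2 fold change of 0.07. Cited2, whose product competes with HIF-1α for the coactivators CBP and p300, stood at 39.3 to 47.6 CPM in normoxia and fell to 24.8 to 27.2 CPM (-0.69 on the log2 scale, adjusted p 1.29e-05). Siah2, a ubiquitin ligase that acts on prolyl hydroxylases, fell from 39.3 ± 5.57 to 28.0 ± 2.02 CPM (-0.49 on the log2 scale, adjusted p 0.00178), and the epithelial covariate brought this to -0.17. The most abundant regulator, the chaperone gene Hsp90ab1, fell slightly from 1758 ± 67.2 to 1573 ± 46.0 CPM (-0.16 on the log2 scale, adjusted p 0.0165), a call that was lost without normoxia 1 (adjusted p 0.0539) or hyperoxia 2 (0.0684). Rack1 stood at 504 and 498 CPM (adjusted p 0.861). The remaining calls, named after their values were seen, were those of Hif1an, which encodes the asparaginyl hydroxylase FIH and rose (log2 fold change 0.31, adjusted p 0.00274), and the coactivator gene Ep300, which fell (log2 fold change -0.24, adjusted p 0.0313). The Ep300 call was lost without normoxia 2 or 4 or hyperoxia 1, 2 or 4 (adjusted p 0.0608 to 0.0877) and in the FPKM models, and with the epithelial covariate its log2 fold change was 0.11.

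Of 50 other non-glycolytic targets 46 were tested, and 18 rose and 12 fell (65.2% of those tested, against 35.6% of all genes). The list did not move in 1 direction, since its median was 0.17 on the log2 scale and its values ran from -1.19 to 2.85. Ak4, a mitochondrial adenylate kinase, stood at 0.918 to 1.17 CPM in normoxia and rose to 6.60 ± 1.07 CPM (2.71 on the log2 scale, adjusted p 6.29e-07). Nt5e, which encodes the adenosine-forming enzyme CD73, rose from 1.13 ± 0.347 to 8.11 ± 3.03 CPM (2.85 on the log2 scale, adjusted p 0.000132). Nt5e was lowest of its group in hyperoxia 3 (3.66 CPM, the rest 9.06 to 10.5 CPM), and the epithelial covariate gave it a log2 fold change of 0.16. Among the abundant endothelial members, Kdr, which encodes VEGF receptor 2, rose from 1956 ± 64.8 to 2222 ± 50.9 CPM (0.18 on the log2 scale, adjusted p 0.00606), and had 0.097 beside the epithelial covariate. Ptprb, the vascular endothelial phosphatase gene, fell from 3691 ± 449 to 2488 ± 275 CPM (-0.57 on the log2 scale, adjusted p 0.00149), and the epithelial covariate gave it a log2 fold change of -0.05.

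Other members of this list are named here after their values were seen. Apln, which encodes the endothelial peptide apelin, had 323 ± 47.9 CPM in normoxia and rose to 920.3 ± 75.9 CPM (log2 fold change 1.51, adjusted p 4e-06). The paper uses Apln as a marker of aerocyte capillary ECs, whose frequency it reports as higher in hyperoxia by single-cell RNA-seq. Whether such a shift among ECs contributed to the Apln value was not tested. Bhlhe40, a transcriptional repressor gene, rose as well (96.5 ± 17.4 and 199 ± 30.3 CPM, log2 fold change 1.04, adjusted p 0.0015). Bnip3l, the close relative of Bnip3 in mitophagy, had 165, 158, 166 and 177 CPM in normoxia and 129, 128, 126 and 129 CPM in hyperoxia. It fell without overlap (log2 fold change -0.38, adjusted p 4.78e-05), in the same direction as the value of Bnip3. Vegfa, the classical HIF target, fell as well (555 ± 58.1 and 429 ± 10.3 CPM, log2 fold change -0.37, adjusted p 0.00118). The largest fall of the list, and its only one past an absolute log2 fold change of 1, was that of the chemokine receptor gene Cxcr4, from 92.4 ± 5.13 to 40.5 ± 8.13 CPM (-1.19 on the log2 scale, adjusted p 6.19e-05). Epo had no count in any library.

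Of 21 glycolytic targets 20 were tested, and 9 rose and 2 fell (55.0% of those tested, against 35.6% of all genes), with a median log2 fold change of 0.25. Pfkfb3, which encodes an activator of glycolytic flux, rose most, from 50.5 ± 0.800 to 134 ± 14.5 CPM (1.41 on the log2 scale, adjusted p 4.08e-08). Pdk1, whose product restrains the entry of pyruvate into the citrate cycle, fell from 34.3 ± 3.93 to 20.3 ± 1.21 CPM (-0.76 on the log2 scale, adjusted p 3.28e-05), and had -0.41 beside the epithelial covariate. Hk2 rose from 2.74 ± 1.07 to 4.58 ± 0.797 CPM (0.74 on the log2 scale, adjusted p 0.0368) with overlapping groups. Its call was lost without any 1 of 6 libraries (normoxia 1, 2 or 4, or hyperoxia 1, 2 or 4, with adjusted p up to 0.103) and with the replicate number as a block (0.0607), and in the unfiltered model of log2(FPKM + 1) (0.129). The most abundant members, Pkm (log2 fold change 0.20, adjusted p 0.00532) and Gpi1 (log2 fold change 0.26, adjusted p 0.00102), rose by small amounts.

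**Figure D5:**
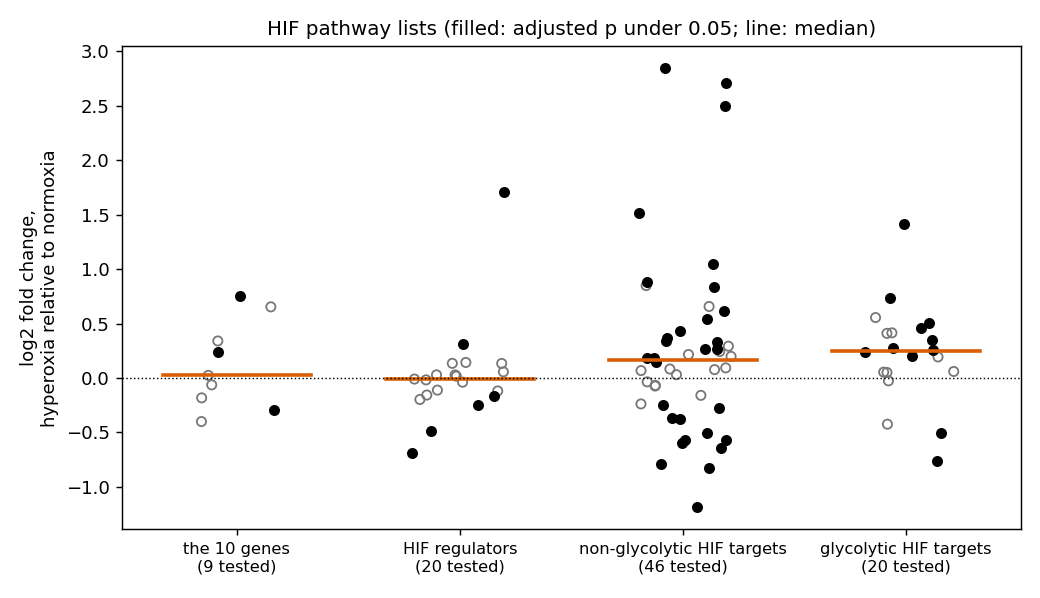
Log2 fold change (hyperoxia relative to normoxia) of the tested genes among the 10 genes and in the 3 further lists, filled where the edgeR adjusted p was under 0.05 and open otherwise, with the median of each list as a line. The regulators clustered near 0 with a median of -0.01, and the non-glycolytic targets ran from -1.19 to 2.85.

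Groups did not overlap for 3 of the 9 tested members (33.3%), 5 of 20 regulators (25.0%), 29 of 46 non-glycolytic targets (63.0%) and 10 of 20 glycolytic targets (50%), against 35.4% of all tested genes.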

How the data were processed

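ECs were profiled by bulk RNA-seq in 4 normoxia and 4 hyperoxia libraries, grouped by their titles. Per the study's methods, libraries were sequenced as paired ends on an Illumina instrument. The labels' processing notes name the build mm10 with HISAT2 2.0.5 and featureCounts 1.5.0-p3, without stating the role or settings of each. The authors deposited whole-number counts per gene and FPKM values, and the FPKM equalled the count per gene length and library total within a relative deviation of 4e-08 and 1 constant per library.

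Counts were tested with the edgeR 4.0.16 quasi-likelihood test in R 4.3.3 (TMM normalization, filterByExpr, group as the only term), with Benjamini-Hochberg adjustment over the 15564 genes kept. After this filter each library retained 99.8% or more of its counts. SEs follow from the F statistic, and intervals are 95%. CPM used TMM-normalized library sizes, and log2 CPM a prior count of 2. Alternatives used DESeq2 1.42.0 and limma 3.58.1. The scripts were tested on simulated data. The 10 genes and the further lists were chosen with earlier results of these data known. Of each further list, the 3 largest changes past the threshold and the 2 most abundant genes are named, besides the genes said to be named later. A gene that this rule selects is not reported here. Since nothing states that libraries came from separate pups or litters, p-values measure the spread between these libraries only.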

Additional observations from a re-analysis of the deposited data

Results flagged for a closer look

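In 3 of the 20 groups of 4 libraries (10 genes in 2 groups), 1 library was far from the others by Dixon's criterion at 95%, where chance gives about 1 such group in 20. Epas1 was lowest in hyperoxia 1, at 5317 CPM, with the other hyperoxia libraries between 5506 and 5540 CPM (its gap was 0.849 of the range). Bnip3 was highest in hyperoxia 4, at 6.38 CPM, with the others between 4.75 and 4.91 CPM (0.902 of the range). Ankrd37 was highest in normoxia 1, at 10.2 CPM, with the others between 8.62 and 8.82 CPM (0.868 of the range).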

How the results depend on the processing

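Besides the model with the epithelial score, Hif1a, Epas1 and Ankrd37 kept their direction and stayed past the threshold in the other 20 of 21 alternatives each. With that score none of the 10 genes, 0 regulators, 4 non-glycolytic and 1 glycolytic targets passed, Hif1a, Epas1 and Ankrd37 had log2 fold changes of 0.22, -0.24 and 1.51, and Adm (-0.21), Hk2 (-0.30), Ep300 (0.11) and Egln2 (-0.016) changed sign, while 1.6% of all genes passed. With a minimum absolute log2 fold change of 1 the counts were 0, 1, 6 and 1, where 6.96% of all tested genes passed. Bnip3 passed with upper quartile normalization (-0.42), library totals (-0.42), log2(FPKM + 1) (-0.29), log2(FPKM + 0.1) (-0.39) and protein-coding genes only (-0.42). With single libraries left out, the members past the threshold numbered 3 to 5, the regulators 4 to 7, the non-glycolytic targets 27 to 33 and the glycolytic targets 10 to 13, where 28.6% to 34.4% of all genes passed. The count of 5 came without hyperoxia 1 (31.3% of all genes), when Egln3 (0.76) and Vhl (-0.24) also passed. The log2 fold changes then ranged from 0.20 to 0.28 (Hif1a), -0.32 to -0.27 (Epas1), 0.61 to 0.90 (Ankrd37), 0.46 to 0.83 (Egln3), -0.24 to -0.14 (Vhl), -0.51 to -0.34 (Bnip3), -0.011 to 0.066 (Egln1) and -0.065 to 0.029 (Rack1), and the 2 last ones crossed 0. Libraries sharing a replicate number did not deviate together (correlations across genes of -0.14 to 0.119) and share only a number. With the replicate number as a block, 3 members passed (Hif1a 0.24, Epas1 -0.29, Ankrd37 0.72) and the list counts were 6, 28 and 10, where 32.1% of all genes passed. Among the calls of the pathway genes named in the text, that of Hk2 was lost with this block. The causes were not tested. Counts of 23 to 142 per library limit Egln3, Adm and Bnip3, and Hif3a was below the filter (without a filter, edgeR log2 fold change 1.35, adjusted p 0.149).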
